A study of Mus musculus with 8 samples.

Results

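The D-type cyclins, the G1 kinases, the CDK inhibitors that act on them and the retinoblastoma gene were examined in intestinal epithelial cells of lactating mice with and without intestinal RANK. The set comprised Ccnd1, Ccnd2, Ccnd3, Cdk4, Cdk6, Cdkn1a, Cdkn1b, Cdkn1c, Cdkn2b and Rb1, which were listed by name and made up 10 of the 54532 genes in the count table. Per the study's methods, the Rank-knockout group (4 libraries) carried a conditional Rank allele that a Cre recombinase under the Villin1 promoter deleted in the intestinal epithelium, and the WT group (4 libraries) came from female littermates with functional Rank, the gene of the receptor activator of NF-κB. Whether the WT mice carried the conditional allele or the Cre was not given. All mice, of a C57BL/6J background and mated with wild-type males, were taken at lactation day 5, and epithelial cells were released from minced intestine by a dissociation reagent and a strainer without sorting, so other cells could remain. The region of intestine and the age of the mice were not given in the labels. The labels call each sample a mouse, and beyond that do not describe how the samples were kept apart, so p values measured the spread between these samples. Cells outside the Villin1 domain that were carried into the preparation kept Rank.

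Entry into the cell cycle is set in G1. D-type cyclins are made in response to growth signals and activate CDK4 and CDK6, which phosphorylate the retinoblastoma protein and release E2F transcription factors from it, so that genes of DNA replication are transcribed. CIP/KIP inhibitors (p21, p27 and p57, from Cdkn1a, Cdkn1b and Cdkn1c) bind cyclin-CDK complexes, whereas INK4 inhibitors such as p15 (Cdkn2b) bind CDK4 and CDK6 themselves. In the intestine, dividing cells occupy the crypts, and p21 is known to mark cells that leave the cycle as they move toward the villus.

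Total counts were 1530781 to 1616024 in 3 of the 4 WT libraries, 4335653 in WT replicate 2 and from 2103716 to 4321154 in Rank-knockout. Tnfrsf11a, which encodes RANK, had 76.8, 49.3, 41.3 and 73.3 CPM (counts scaled to a common library size) in WT and 27.0, 41.7, 35.2 and 46.8 CPM in Rank-knockout, and the genotypes overlapped (log2 -0.67, SE 0.22, edgeR adjusted p = 0.0322). That call was lost in 6 of 17 alternatives, with library totals, without the 50 most abundant genes in the library sizes, and without WT replicate 1 or 4 or without replicate 1 or 3 of Rank-knockout. The deleted exons were not given in the sources used here, and tags from the 3′ end of the transcript check nothing where they lie outside the deleted part. CPM values were scaled by library totals with TMM factors, fold changes are Rank-knockout over WT, and "rose" and "fell" mean an adjusted p under 0.05 in edgeR's quasi-likelihood test over all genes tested.

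Of the 10 genes, 4 rose (Ccnd1, Ccnd2, Cdk4 and Cdk6), 2 fell (Cdkn1a and Rb1) and 4 did not pass the test (Ccnd3, Cdkn1b, Cdkn1c and Cdkn2b). All 10 were among the 9855 genes tested, of which 15.8% rose and 14.6% fell, 30.4% in either direction. There was no overlap between WT and Rank-knockout libraries for 2 of the 10 genes, Ccnd1 and Cdkn1a, against 28.8% of all genes tested. In bulk RNA, fewer cells of a type and less RNA per cell cannot be told apart.

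**Figure D1:**
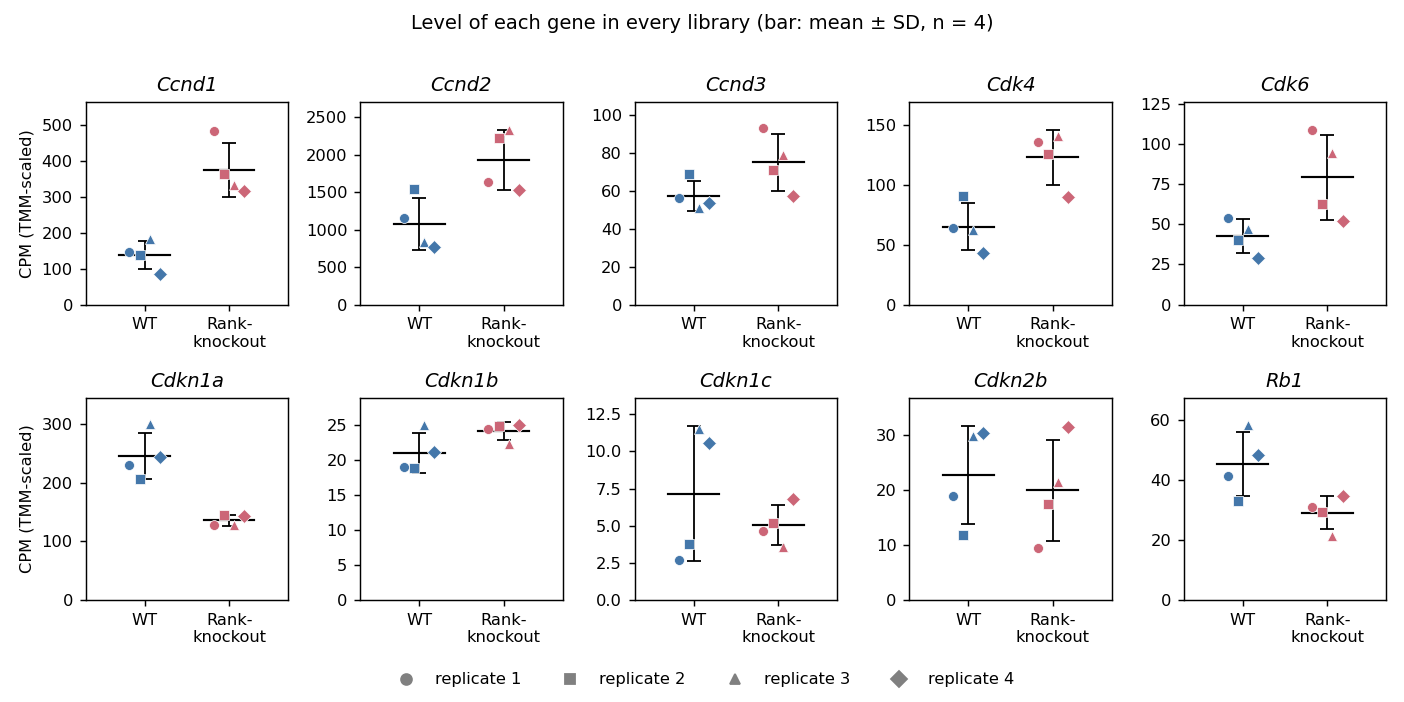
Level of each of the 10 genes in CPM (vertical axis, starting at 0, a scale of its own for each gene) in the 4 WT libraries (blue) and the 4 Rank-knockout libraries (red), with the marker shape giving the replicate and the bars the mean ± SD. Only Ccnd1 (85.8 to 182 against 316 to 484 CPM) and Cdkn1a (207 to 299 against 128 to 145 CPM) show no overlap between the genotypes.

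Among the D-type cyclins, Ccnd1 had the largest fold change. Ccnd1 (ENSMUSG00000070348; GRCm38 chromosome 7, 144929931 to 144939925, minus strand, protein-coding) encodes cyclin D1, a target of many growth signals. It stood at 145, 139, 182 and 85.8 CPM in WT replicates 1 to 4 and at 484, 365, 335 and 316 CPM in Rank-knockout. Every Rank-knockout library was above every WT library, with the smallest gap between WT replicate 3 and Rank-knockout replicate 4. The mean rose from 138 ± 39.7 to 375 ± 75.4 CPM (SD, n = 4 per genotype), a 2.71-fold change (95% interval 2.01 to 3.66; log2 1.44, SE 0.20, edgeR adjusted p = 0.000275). These values rested on 1167 counts in WT and 5237 in Rank-knockout.

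Ccnd2 (ENSMUSG00000000184; chromosome 6, 127125162 to 127152193, minus strand), which encodes cyclin D2, was the most abundant of the 10 genes. Its level was 1157, 1538, 842 and 775 CPM in WT and 1639, 2226, 2326 and 1534 CPM in Rank-knockout, above the level of 99.3% of all genes tested. WT replicate 2 and Rank-knockout replicate 4 met at the border of the groups and overlapped narrowly, and the other 3 libraries of each genotype were apart. Ccnd2 rose 1.79-fold (1.31 to 2.45; log2 0.84, SE 0.21, edgeR adjusted p = 0.00854), from 1078 ± 349 to 1931 ± 402 CPM.

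Ccnd3 (ENSMUSG00000034165; chromosome 17, 47505051 to 47599691, plus strand) encodes cyclin D3 and was the least abundant D-type cyclin in every library. It was measured at 56.4, 68.9, 50.8 and 53.5 CPM in WT and at 93.1, 70.7, 78.9 and 57.3 CPM in Rank-knockout. WT replicate 2 lay above Rank-knockout replicate 4, and the means were 57.4 ± 7.99 and 75.0 ± 15.0 CPM. The log2 fold change of 0.37 (95% interval 0.0066 to 0.74) had an edgeR adjusted p of 0.113 and did not pass the test. It did pass with library totals in place of TMM scaling (log2 0.58, adjusted p = 0.0197), with library sizes that left out the 50 most abundant genes (log2 0.50, adjusted p = 0.0361) and without WT replicate 2 or Rank-knockout replicate 4 (log2 0.48 and 0.49).

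Tags come from the 3′ end of each transcript, so levels of different genes were set side by side without division by length. PCR copies count as reads, so such comparisons between genes are approximate. Ccnd2 took 78.3% to 88.1% of the D-type cyclin counts in WT and 74.0% to 84.9% in Rank-knockout. The Ccnd1 share was 11.3% ± 3.96 (SD, n = 4) in WT and 16.1% ± 4.24 in Rank-knockout, and the Ccnd3 share 4.67% ± 0.854 and 3.19% ± 0.691. All 3 shares overlapped between the genotypes, so cyclin D2 transcripts were the bulk of the family in both. The ratio of Ccnd1 to Ccnd3 counts did separate them, at 1.605 to 3.59 in WT and 4.24 to 5.52 in Rank-knockout, whereas the ratio of Ccnd2 to Ccnd1 overlapped (4.62 to 11.0 and 3.39 to 6.95). Summed over the family, the level was 1274 ± 365 CPM in WT but 2381 ± 391 CPM in Rank-knockout, with no overlap.

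The kinases that D-type cyclins activate moved in the same direction. Cdk4 (ENSMUSG00000006728; chromosome 10, 127063534 to 127067920, plus strand) was at 64.6, 91.0, 62.3 and 43.6 CPM in WT and at 136, 126, 141 and 90.2 CPM in Rank-knockout. Only WT replicate 2 reached into the Rank-knockout range, just above its lowest library, replicate 4. The mean went from 65.4 ± 19.5 to 123 ± 22.9 CPM, a 1.85-fold rise (1.37 to 2.50; log2 0.89, SE 0.20, edgeR adjusted p = 0.00466).

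Cdk6 (ENSMUSG00000040274; chromosome 5, 3341485 to 3531008, plus strand) was at 53.7, 40.5, 46.7 and 29.1 CPM in WT and at 108, 62.5, 94.1 and 51.8 CPM in Rank-knockout. Here WT replicate 1 was above Rank-knockout replicate 4, and the Rank-knockout libraries were spread more widely than for Cdk4. Cdk6 rose 1.87-fold (1.31 to 2.67; log2 0.90, SE 0.24, edgeR adjusted p = 0.0111), from 42.5 ± 10.5 to 79.2 ± 26.5 CPM. Cdk4 took 60.2% ± 6.38 of the counts of both kinases in WT and 61.5% ± 4.83 in Rank-knockout, and the ratio of D-type cyclin to kinase counts was 9.86 to 13.3 in WT and 9.07 to 14.1 in Rank-knockout. Both measures overlapped between the genotypes.

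Promoter windows of the kinases and of Cdkn1a, the genes with a window among those that rose or fell, are shown to give the sequence context of the starts. The windows were taken from RefSeq (GRCm38.p6), run 5′ to 3′ on the gene's strand from 250 bases before to 50 bases after an annotated start, and were found for 6 of the 10 genes, Cdk4, Cdk6, Cdkn1a, Cdkn1b, Cdkn2b and Ccnd3. Capitals in the Cdk4 window (chr10:127063285-127063584, plus strand) mark the E-box CACGTG, and in the Cdk6 window (chr5:3343643-3343942, plus strand) the E-box and then the E2F motif TTTNNCGC. All motifs were searched on both strands, and no capitalized matches overlap.
Cdk4: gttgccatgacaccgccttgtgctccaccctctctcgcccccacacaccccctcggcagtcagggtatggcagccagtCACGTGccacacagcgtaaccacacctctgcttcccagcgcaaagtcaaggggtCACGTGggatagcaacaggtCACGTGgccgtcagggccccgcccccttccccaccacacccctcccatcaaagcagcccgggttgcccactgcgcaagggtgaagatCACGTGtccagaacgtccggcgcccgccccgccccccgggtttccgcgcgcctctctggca
Cdk6: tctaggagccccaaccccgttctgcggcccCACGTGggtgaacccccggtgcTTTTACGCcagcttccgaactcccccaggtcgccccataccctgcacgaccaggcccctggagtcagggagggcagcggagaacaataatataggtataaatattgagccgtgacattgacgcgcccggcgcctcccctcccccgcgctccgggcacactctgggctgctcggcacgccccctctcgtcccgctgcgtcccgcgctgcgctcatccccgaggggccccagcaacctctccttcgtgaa
The Cdk4 window holds 4 E-boxes and the Cdk6 window 1 E-box and 1 E2F motif. Of 32851 mouse windows of the same length, 7.15% hold at least 1 E-box and 5.17% at least 1 such E2F motif. The E-box is the element to which MYC and related factors bind, and a match of letters is a description of the window and not evidence of binding. Myc itself was below the filter on low counts in these libraries, with a mean of 2.69 CPM in WT, against 3.04 CPM in Rank-knockout.

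The inhibitor Cdkn1a went the other way. Cdkn1a (ENSMUSG00000023067; chromosome 17, 29090976 to 29100727, plus strand) encodes p21, an inhibitor of cyclin-CDK complexes and a well-known p53 target. It stood at 230, 207, 299 and 244 CPM in WT and at 128, 145, 128 and 144 CPM in Rank-knockout. All WT libraries were above all Rank-knockout libraries, and the Rank-knockout libraries lay close together. The mean of 245 ± 39.2 CPM fell to 136 ± 9.22 CPM (SD, n = 4), which is 0.558 times the WT level (log2 -0.84, 95% interval -1.14 to -0.54, SE 0.14, edgeR adjusted p = 0.000726).

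In the window at the upstream Cdkn1a start (chr17:29090729-29091028, plus strand), capitals mark matches to the p53 decamer motif.
Cdkn1a: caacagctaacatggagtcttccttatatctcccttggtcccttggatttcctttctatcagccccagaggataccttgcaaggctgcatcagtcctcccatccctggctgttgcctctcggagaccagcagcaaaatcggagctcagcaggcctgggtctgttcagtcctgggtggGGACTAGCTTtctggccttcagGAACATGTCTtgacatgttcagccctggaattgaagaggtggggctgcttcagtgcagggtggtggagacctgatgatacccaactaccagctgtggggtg
The window holds 2 decamers, the window at the second annotated start (chr17:29093519-29093818) none, and 8.36% of all mouse windows hold at least 1.

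Cdkn1b (ENSMUSG00000003031; chromosome 6, 134920401 to 134925513, plus strand), which encodes p27, was at 19.0, 18.9, 25.1 and 21.1 CPM in WT and at 24.4, 24.9, 22.3 and 25.1 CPM in Rank-knockout. The ranges overlapped, and the log2 fold change of 0.22 (95% interval -0.17 to 0.61, edgeR adjusted p = 0.392) did not pass the test. The interval allows a level from 0.888 to 1.52 times that of WT. Cdkn1c (ENSMUSG00000037664; chromosome 7, 143458339 to 143461050, minus strand), which encodes p57, was covered by 52 counts in all of WT and 70 in all of Rank-knockout. With 2.72, 3.77, 11.5 and 10.6 CPM in WT and 4.63, 5.21, 3.57 and 6.80 CPM in Rank-knockout, it did not pass the test (log2 -0.37, 95% interval -1.26 to 0.51, edgeR adjusted p = 0.530). The WT libraries were themselves split, with replicates 3 and 4 well above replicates 1 and 2.

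Within the CIP/KIP family, the shares of Cdkn1a and Cdkn1b did not overlap between WT and Rank-knockout (not tested). Cdkn1a took 91.4%, 90.1%, 89.1% and 88.5% of the family's counts in WT and 81.5%, 82.8%, 83.2% and 81.8% in Rank-knockout. The Cdkn1b share was 7.74% ± 0.336 (SD, n = 4) in WT, against 14.6% ± 0.612 in Rank-knockout, also without overlap, and the Cdkn1c share overlapped at 2.50% and 3.03%. A fall of Cdkn1a by itself raises the share of Cdkn1b and its ratio to Cdkn1a. The level of Cdkn1b overlapped and did not pass the test (means of 21.0 and 24.2 CPM). As a ratio that needs no scaling, Cdkn1b to Cdkn1a counts ran from 0.0828 to 0.0912 in WT and from 0.172 to 0.191 in Rank-knockout. The sum of the family was 273 ± 45.7 CPM in WT but 165 ± 11.3 CPM in Rank-knockout, with no overlap.

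**Figure D2:**
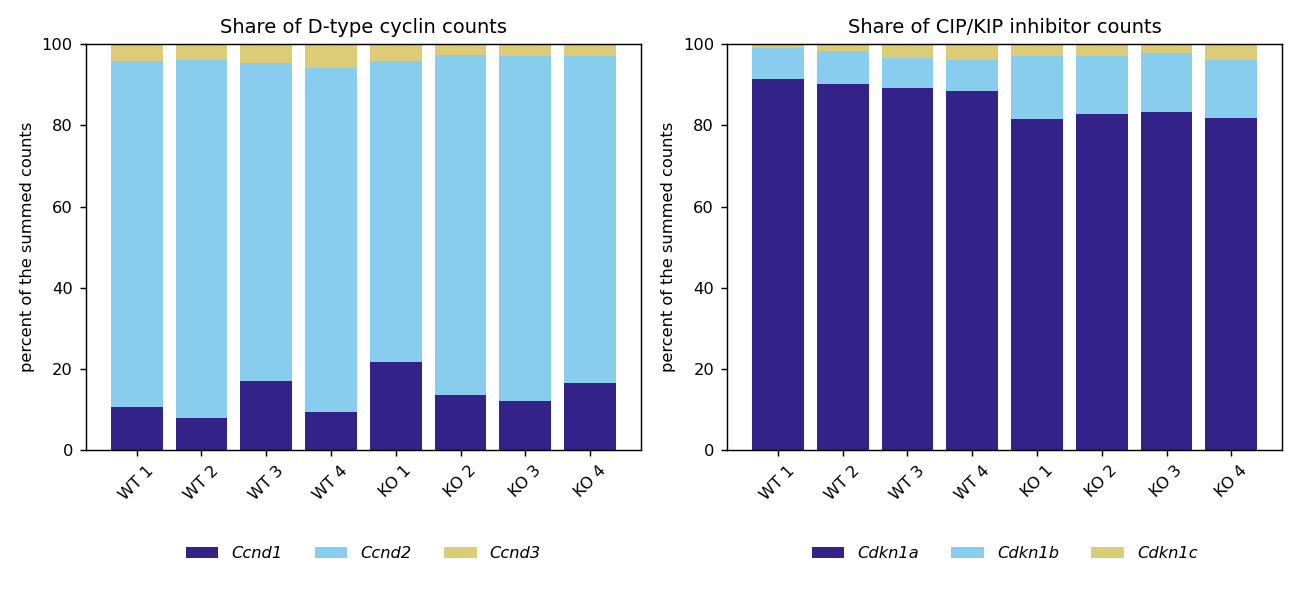
Share of each gene in the summed counts of the D-type cyclins (left) and of the CIP/KIP inhibitors (right), in percent, 1 stacked bar for each WT and Rank-knockout (KO) library. Ccnd2 is the largest part of every bar on the left, and on the right the Cdkn1b share is 7.47% to 8.22% in WT and 14.3% to 15.6% in Rank-knockout. The level of Cdkn1b in CPM overlapped between the genotypes, and Cdkn1a fell.

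Cdkn2b (ENSMUSG00000073802; chromosome 4, 89306299 to 89311039, minus strand), the INK4 inhibitor p15 that TGF-β signalling is known to induce, varied more within than between the genotypes. It was at 19.0, 11.8, 29.8 and 30.4 CPM in WT and at 9.48, 17.5, 21.4 and 31.4 CPM in Rank-knockout. The lowest and the highest of the 8 values were both Rank-knockout libraries, replicates 1 and 4. The log2 fold change was -0.14 (95% interval -0.97 to 0.68, edgeR adjusted p = 0.813), and its sign turned in 4 of 17 alternatives.

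Rb1 (ENSMUSG00000022105; chromosome 14, 73183673 to 73325822, minus strand) encodes the retinoblastoma protein, the substrate of CDK4 and CDK6. Its level was 41.5, 32.9, 58.3 and 48.2 CPM in WT and 31.0, 29.4, 21.4 and 34.5 CPM in Rank-knockout. Only WT replicate 2 lay within the Rank-knockout range. Rb1 fell from 45.2 ± 10.7 to 29.1 ± 5.54 CPM (log2 -0.60, 95% interval -1.04 to -0.17, SE 0.21, edgeR adjusted p = 0.0365). This call was not stable, because it was lost in 8 of 17 alternatives: with library totals (log2 -0.40, adjusted p = 0.145), with library sizes that left out the 50 most abundant genes, with limma-voom, and after removal of replicate 3 or 4 of WT or of replicate 1, 2 or 3 of Rank-knockout (log2 -0.63 to -0.47, adjusted p from 0.063 to 0.108).

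**Figure D3:**
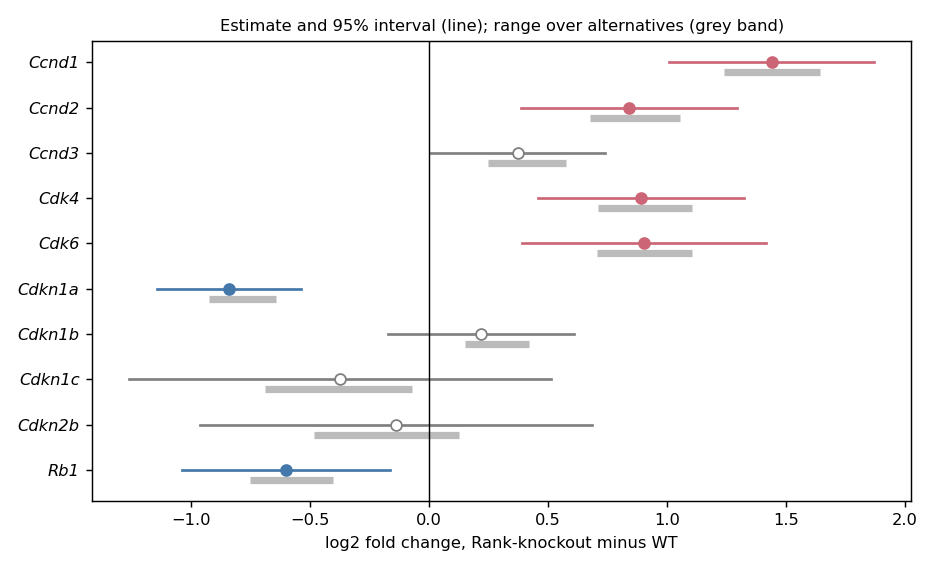
Log2 fold change of each gene, Rank-knockout minus WT (horizontal axis), with the 95% interval as a line and the range over the alternative analyses as a grey band below it. Filled points (red higher, blue lower) had an edgeR adjusted p under 0.05, open points did not. The band stays above 0 for Ccnd1 (1.24 to 1.64), below 0 for Cdkn1a (-0.93 to -0.64) and crosses 0 for Cdkn2b.

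Cyclins and inhibitors were also compared within each library, where scaling cancels. Cdkn1a counts exceeded Ccnd1 counts in all 4 WT libraries, with 0.352 to 0.674 Ccnd1 counts per Cdkn1a count. In all 4 Rank-knockout libraries the order was the reverse, with 2.20 to 3.78. D-type cyclin counts per CIP/KIP count were 5.41, 7.62, 3.21 and 3.32 in WT and 14.1, 15.2, 17.7 and 10.9 in Rank-knockout, again with no overlap. These ratios combine genes already described one by one and were not tested.

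Across the libraries, the order of the mean levels in WT was Ccnd2, Cdkn1a, Ccnd1, Cdk4, Ccnd3, Rb1, Cdk6, Cdkn2b, Cdkn1b and Cdkn1c. From Ccnd1 down to Cdkn1b the library values of each gene overlapped those of the next, whereas Ccnd2, Cdkn1a and Ccnd1 were apart, and so were Cdkn1b and Cdkn1c. In Rank-knockout, the mean of Ccnd1 was above that of Cdkn1a, with no shared range (316 to 484 and 128 to 145 CPM), and Cdkn1a overlapped Cdk4 (90.2 to 141 CPM). Rank-knockout replicate 4 had the lowest level of Ccnd1, Ccnd2, Ccnd3, Cdk4 and Cdk6 in its group, and WT replicate 4 had the lowest level of Ccnd1, Ccnd2, Cdk4 and Cdk6 in its own.

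Other genes of the G1 to S step were taken from a list of 26, of which 25 were tested, 9 rose and none fell, where 15.8% of all genes tested rose and 14.6% fell. Their median log2 fold change was 0.60, beside 0.024 over all genes tested. The partners that act next on the retinoblastoma protein were among them. Ccna2 (cyclin A2) had 10.9, 9.05, 12.9 and 7.26 CPM in WT and 40.2, 36.1, 27.2 and 28.0 CPM in Rank-knockout, with no overlap (log2 1.74, edgeR adjusted p = 0.000188). Ccne1 (cyclin E1) rose from 5.48 ± 2.02 to 11.8 ± 1.79 CPM (log2 1.18, adjusted p = 0.00779), whereas its paralogue Ccne2 had a log2 fold change of 0.27 (adjusted p = 0.426). Cdk2, the kinase of both cyclins, rose from 12.1 ± 3.82 to 21.3 ± 5.02 CPM (log2 0.91, adjusted p = 0.0215), a call that was lost in 4 of 17 alternatives (thinned counts, and removal of WT replicate 2 or of Rank-knockout replicate 1 or 3). Cks1b, a small CDK-binding subunit, also rose (log2 1.09, adjusted p = 0.00127).

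Among the E2F genes, E2f1, E2f2, E2f7 and E2f8 rose, with mean levels of 24.3 and 43.4, 20.2 and 43.7, 4.16 and 9.65, and 17.4 and 33.6 CPM in WT and Rank-knockout, and so did the E2F partner Tfdp1 (log2 1.64, from 2.18 to 6.85 CPM). Tfdp1 rested on only 18 counts in all of WT and 91 in all of Rank-knockout, and had a value in 15 of 17 alternatives. The libraries of E2f1 overlapped, and its call was lost in 4 of 17 alternatives (adjusted p up to 0.0772), those that removed replicate 1 or 4 of WT or replicate 1 or 3 of Rank-knockout. E2f1 and E2f2 encode activators and E2f7 and E2f8 repressors that are themselves induced in S phase. E2f3, E2f4, E2f5 and E2f6 did not pass, at log2 fold changes of 0.095, 0.81, -0.32 and 0.60, although E2f4 did pass with library totals (1.01, adjusted p = 0.041) and without WT replicate 4 (1.09, adjusted p = 0.0478). Neither did the retinoblastoma relatives Rbl1 (0.29, edgeR adjusted p = 0.310) and Rbl2 (-0.44, adjusted p = 0.256). Of the other INK4 inhibitors, Cdkn2c was at 0.72 (adjusted p = 0.210; 1.56 and 0.0219 without WT replicate 2) and Cdkn2d at -0.13 (adjusted p = 0.646), and Cdkn2a was too low to test, with 0.169 CPM in WT and no count in Rank-knockout. The kinase that activates CDKs, Cdk7, and its cyclin Ccnh had log2 fold changes of 0.33 and 0.46 and did not pass.

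**Figure D4:**
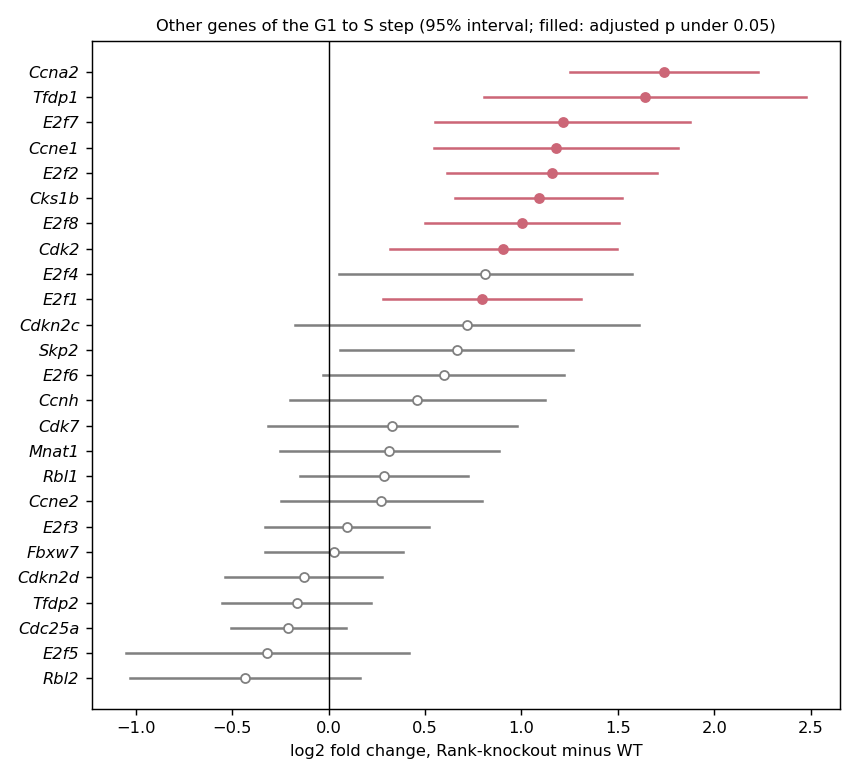
Log2 fold change, Rank-knockout minus WT (horizontal axis), with 95% interval for the 25 tested genes of the G1 to S list. Filled points had an edgeR adjusted p under 0.05: 9 genes are filled, all to the right of 0, from 0.80 for E2f1 to 1.74 for Ccna2.

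Genes that E2F factors are known to activate for DNA replication were a second list. Of 18 tested, 14 rose and none fell, beside 15.8% and 14.6% of all genes tested, and the median log2 fold change was 0.99. For 10 of them WT and Rank-knockout did not overlap, beside 28.8% of all genes tested. Those with the smallest p values were the helicase subunits Mcm6 (37.6 to 87.2 CPM, log2 1.23), Mcm4 (13.1 to 34.8 CPM) and Mcm3 (38.8 to 98.2 CPM, 1.30) and the ribonucleotide reductase subunit Rrm2 (10.4 to 27.8 CPM, 1.38).

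Targets of p53 were listed because Cdkn1a is one of them. Of 13 tested, 2 rose and 3 fell, with a median log2 fold change of -0.16, which is smaller in size than the 0.20 by which scaling to library totals raised the median of all genes. These 5 of 13 are also near the 30.4% of all genes tested that passed in either direction. Mdm2, which encodes the ubiquitin ligase of p53, fell from 185 ± 28.5 to 119 ± 19.4 CPM (log2 -0.64, edgeR adjusted p = 0.00658), and Perp and Btg2 fell by 0.51 and 0.71 on the log2 scale. Aen rose by 1.73 (2.23 to 6.96 CPM), and Bax, a promoter of apoptosis, by 0.64 (adjusted p = 0.0193). Aen rested on only 17 counts in all of WT and 95 in all of Rank-knockout. The calls of Bax, Btg2 and Perp were lost in 5, 8 and 2 of 17 alternatives.

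Regulators that are known to act on these genes formed the last list, of which 22 of 23 were tested, 1 rose and 5 fell, with a median of -0.14, likewise smaller than that shift. The 6 of 22 are near that background share too, so neither count says anything particular to its list. Klf4, a factor of differentiated epithelial cells that is known to activate Cdkn1a, was at 1490, 1900, 1428 and 1469 CPM in WT and at 716, 780, 638 and 588 CPM in Rank-knockout. The groups were far apart, and the fall of Klf4 was -1.21 on the log2 scale (SE 0.15, edgeR adjusted p = 0.000149). Jun (-0.95), Foxo3 (-0.74), whose product is known to activate Cdkn1b, Stat3 (-0.64) and Tcf7l2 (-0.43, named after its value was seen) fell as well. The call of Stat3 was lost with library totals (-0.44, adjusted p = 0.0543). The call of Tcf7l2 was lost in 7 of 17 alternatives (adjusted p up to 0.22): library totals, library sizes that omit the 50 most abundant genes, no filter, and removal of WT replicate 3 or 4 or of Rank-knockout replicate 2 or 3. Ezh2, which encodes a histone methyltransferase known to silence CDK inhibitors, rose from 60.7 ± 4.49 to 95.9 ± 14.7 CPM (log2 0.65, adjusted p = 0.00538). Whether any of these regulators acted on the cyclins, kinases or inhibitors in these mice was not tested.

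Markers of the cells that the preparation could hold were counted in the same way, beside 15.8% higher and 14.6% lower over all genes tested. All 9 tested markers of cycling crypt cells rose, their summed level running from 530 to 887 CPM in WT and from 1482 to 2259 CPM in Rank-knockout. Of 12 markers of villus enterocytes 11 fell, with sums of 27162 to 38934 CPM and 13235 to 18631 CPM. Among the libraries, WT replicate 4 and Rank-knockout replicate 4 had the lowest cycling sums and the lowest Cdk4 and Cdk6 levels of their groups. The remaining libraries did not always keep this order. WT replicate 1 had a lower cycling sum (781 CPM) than WT replicates 2 and 3 but the highest Cdk6 level of WT. Rank-knockout replicate 3 had a lower sum (1590 CPM) than replicates 1 and 2 but the highest Cdk4 level. A link between the sums and these levels was not tested.

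Of 5 markers of crypt base stem cells 2 rose (269 to 397 and 386 to 933 CPM), of 6 Paneth cell markers 3 rose (2075 to 4428 and 2873 to 9254 CPM), and of 7 goblet cell markers 2 rose and 4 fell (12980 to 17271 and 7305 to 9992 CPM). Over all genes tested 15.8% rose and 14.6% fell, and lists this short were not tested as sets. The summed levels of the stem and Paneth cell lists overlapped between WT and Rank-knockout, and those of the goblet cell list did not. None of the 5 enteroendocrine markers passed, nor did the 2 of 5 tuft cell markers that could be tested. The part of such cells in the levels of the cyclins, kinases and inhibitors was not tested.

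Cells that are not epithelial were also looked for, since Ccnd2, Ccnd3 and Cdk6 are used by lymphocytes. Of 9 T cell markers 7 were tested and none passed, and their sum was 240 to 351 CPM in WT, against 169 to 260 CPM in Rank-knockout. Most of that sum was Gzma (179 in WT and 131 CPM in Rank-knockout) and Ccl5 (63.9 and 52.1 CPM), levels in the range of Ccnd3 and Cdk6 or above it, with Ptprc, the gene of CD45, at 9.72 and 6.10 CPM. The part of such cells in the levels of Ccnd2, Ccnd3 and Cdk6 was not tested. Summed levels of B or plasma cell markers were 31.2 to 96.5 and 6.24 to 40.9 CPM, nearly all of it Igha (means of 59.1 and 21.1 CPM, log2 -1.49, edgeR adjusted p = 0.0664), with Cd79a at 0 in every library, and those of stromal or muscle cell markers 9.90 to 17.8 and 5.80 to 18.6 CPM. Myeloid and endothelial markers were all below the filter on low counts, with Adgre1 and Cdh5 at 0 in every library.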

How the data were processed

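Libraries had been made from total RNA by priming at the poly(A) tail, so that tags fall at the 3′ end of each transcript, and sequenced as single reads. The deposited table holds raw counts for each gene, which the authors obtained, per the study's methods, by trimming the reads (BBDuk), removing ribosomal, mitochondrial and other abundant sequences (bowtie2), aligning to GRCm38 (STAR) and counting on the sense strand against the Ensembl annotation (featureCounts); the authors tested genotype with DESeq2. No molecular identifiers were mentioned, so PCR copies count as reads. Counting by strand keeps apart genes that share exon bases on opposite strands, such as Bysl with Ccnd3 and Tspan31 with Cdk4; a processed pseudogene, Ccnd3-ps, was at 0 counts.

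Symbols and positions came from GENCODE M21 (54495 of 54532 identifiers), on the same build. Counts were filtered with filterByExpr, scaled by TMM and fitted with edgeR 4.0.16 in R 4.3.3 (robust quasi-likelihood F-test, genotype as the only term, all 8 libraries), with Benjamini-Hochberg adjustment over the 9855 genes tested and a threshold of 0.05. Standard errors and 95% intervals came from the F statistic and so cover the spread between libraries, and CPM used TMM-adjusted totals. Alternatives changed the scaling (RLE, library totals, or totals that leave out the 50 most abundant genes), the filter (none, or a mean of 5 CPM), the tool (DESeq2 1.42.0, limma-voom from limma 3.58.1), the model (replicate number as a block), the depth (thinned to 1530781 counts) or the libraries (each left out in turn). No pair of libraries of a genotype agreed within counting noise (chi-square per degree of freedom from 3.99 to 24.4), a value that PCR copies would also raise, and each was counted as a sample as the labels give it. The genes, lists and tests were chosen with earlier results of these data known, so the lists are no independent support. All 10 genes were named, and of the other lists every tested cyclin, CDK, CDK inhibitor, retinoblastoma relative and E2F could be named, plus up to 4 genes with the smallest p in each direction, and up to 3 genes of each marker list by mean CPM; Tnfrsf11a, Tcf7l2, Cd79a, Adgre1 and Cdh5 were named besides.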

Additional observations from a re-analysis of the deposited data

Results flagged for a closer look

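A sample stood apart from the other 3 of its genotype, by Dixon's test at the 95% level, in 4 of 72 sets of values examined, where chance gives about 3.6 (1 in 20). WT replicate 2 had 4335653 total counts against 1530781 to 1616024 in the other WT libraries, so its values have the smallest counting error in WT. Rank-knockout replicate 3 had 17.8 CPM of Rbl1, beside 28.4 to 30.6 CPM in the rest of its group. Rank-knockout replicate 4 had 21.7 CPM of E2f3, beside 26.8 to 27.2 CPM. WT replicate 3 had 29.1 CPM of Cks1b, beside 19.0 to 20.1 CPM. None of the 10 cyclin, kinase, inhibitor and Rb1 genes had such a library.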

How the results depend on the processing

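Of 169 values of the 10 genes under the alternatives, 153 kept their direction and their side of the threshold, 8 lost a call, 4 gained one and 4 changed sign. The 4 rises and the fall of Cdkn1a passed in every alternative: Ccnd1 ranged from 1.24 to 1.64, Ccnd2 from 0.68 to 1.05, Cdk4 and Cdk6 each from 0.71 to 1.11 and Cdkn1a from -0.93 to -0.64. Cdkn2b turned to 0.052 with library totals, 0.019 without WT replicate 3, 0.020 without WT replicate 4 and 0.12 without Rank-knockout replicate 1 (range without 1 library -0.48 to 0.12), E2f3 to -0.055 without WT replicate 1, and Cdkn2d to 0.068 with library totals. The cause was not tested.

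Library totals moved the all-gene median of the log2 fold change up by 0.20 and changed the calls from 1555 higher and 1438 lower to 2566 and 859 (52.0% to 74.9% higher). Library sizes without the 50 most abundant genes moved it by 0.13 (68.0% higher), and no filter by 0.10. The number of the 10 genes that fell was 1 with library totals, without those 50 genes and with limma-voom, each by the loss of Rb1. Over the 8 fits that left out 1 library, 1020 to 1718 genes were higher and 1097 to 1564 lower, of the 10 genes 4 to 5 and 1 to 2, with the 1020 reached without WT replicate 4. With the replicate number as a block, 1708 genes were higher and 1602 lower, with 4 and 2 of the 10, and no call of the 10 changed. Deviations of same-numbered libraries correlated at 0.0517, 0.153, -0.139 and 0.323, so the numbers were not taken to pair the mice.

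Perp lost its call with library totals and without WT replicate 3, Bax without replicate 1, 3 or 4 of WT or 2 or 3 of Rank-knockout, and Btg2 with library totals, without the 50 most abundant genes, with limma-voom and without WT replicate 3 or 4 or replicate 1, 2 or 4 of Rank-knockout. Cdkn1c had 4 to 26 counts per library.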
